A study of Mus musculus with 10 samples.

Results

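Expression of 9 genes of the inhibin, activin and BMP pathways was examined in breast cancer cells of human origin, positive for the estrogen receptor, that had been grown in mice. The genes were INHA, INHBA and INHBB (inhibin and activin subunits), BMP7 (a bone morphogenetic protein), ACVR1B and ACVR2A (activin receptors), FST and BAMBI (inhibitors) and SMAD7 (an inhibitory SMAD). Members were taken as all probe sets annotated with exactly 1 symbol among these 9, which gave 21 of the 61359 probe sets on the array and 9 of the 19556 genes with such a probe set. The list was chosen by measured values of these same arrays. Which of these values picked each member is not recorded. All differences of the members between pellet states and between sites are therefore given as descriptions, with no p-value. Counts of members past a threshold of the fit over all genes stand only beside the share of all genes past it, and support nothing.

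Activins are dimers of inhibin beta subunits, and inhibins pair a beta subunit with the alpha subunit encoded by INHA and oppose activin. Activins bind a type II receptor such as ACVR2A, which recruits a type I receptor such as ACVR1B that phosphorylates SMAD2 and SMAD3, while BMPs such as BMP7 act mainly through SMAD1, SMAD5 and SMAD9. Follistatin (FST) binds activins outside the cell, BAMBI is a membrane protein that resembles a type I receptor without its kinase domain, and SMAD7 blocks activated type I receptors. In breast tissue these ligands are known for effects on the growth and differentiation of the epithelium.

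The cells were grown as xenografts in female nu/nu mice aged 20 weeks. All mice had received an estrogen pellet, which either stayed in place (E) or was taken out for 1 week (estrogen withdrawn, EWD), so no group was without earlier estrogen. Cells were laser captured from frozen sections of axillary lymph node metastases or of primary mammary gland tumors, and their RNA was PCR amplified, labelled with biotin and hybridized to arrays of human probe sets, to which mouse RNA could add only through cross-hybridization. The labels do not name the cell line and give no group without a tumor.

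The lymph node groups held 3 E arrays (mice 6, 11 and 14) and 3 EWD arrays (mice 9, 10 and 19). The primary tumor groups held 2 E arrays (mice 11 and 14) and 2 EWD arrays (mice 10 and 19). The 10 arrays thus came from 6 mice, 4 of which gave both sites. Replicates within a group were separate mice. In such material fewer cells of a type and less RNA per cell cannot be told apart.

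All values are the authors' deposited log2 signals, and each difference is given in log2 units together with its standard error (SE) from 1 limma fit over the 10 arrays, in which 17170 genes were tested and called at a Benjamini-Hochberg adjusted p below 0.05. Array medians lay between 2.70 and 2.83, but the 99th percentiles of the primary tumor E arrays were 9.44 and 10.04 against 11.38 to 11.67 on the other 8. Median differences between E and EWD in primary tumor were 0.11 for genes with a mean under 4 and −1.90 for genes with a mean over 10, and after quantile normalization, which gives all arrays 1 distribution, they were 0.07 and −0.18. Differences of the members between pellet states are therefore given on both scales. The 18 hybridization control probe sets averaged 12.04 to 12.47 on the lymph node E array of mouse 11, the lymph node EWD array of mouse 19 and both primary tumor EWD arrays, and 9.47 to 10.59 on the others, so in primary tumor this split cannot be told apart from the pellet state. All 7 luminal epithelial markers passed the filter on dim probe sets, with array means of 9.21 to 10.27 in lymph node E, 10.37 to 10.59 in lymph node EWD, 8.15 to 8.37 in primary tumor E and 10.36 to 10.42 in primary tumor EWD. Of the 7 fibroblast markers 5 passed (array means of 2.97 to 3.46), of the 7 leukocyte markers 5 were measured and 3 passed (2.40 to 2.77), all 3 endothelial markers passed (3.15 to 4.37), and 1 of 3 fat cell markers passed (2.13 to 2.52). Of 3 basal cell markers 2 were measured, with array means of 4.66 and 5.61 in primary tumor E, 3.23 and 4.05 in primary tumor EWD, 2.95 to 4.70 in lymph node E and 2.63 to 3.36 in lymph node EWD. The part of these cells in the results was not tested. The estrogen-induced gene GREB1 averaged 9.33 in lymph node E and 6.47 in lymph node EWD, and 9.69 and 7.25 in the primary tumor groups. TFF1 and ESR1 were also set as checks of the pellet, and their values are not given here.

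INHBB, which encodes the beta B subunit of activin B and inhibin B, was lower with the pellet in both sites. In lymph node its single probe set read 4.37, 3.24 and 4.95 in E mice 6, 11 and 14, and 8.48, 8.16 and 6.82 in EWD mice 9, 10 and 19. In primary tumor it read 3.17 and 4.07 in E mice 11 and 14, and 7.06 and 7.54 in EWD mice 10 and 19. The 5 E arrays lay between 3.17 and 4.95 and the 5 EWD arrays between 6.82 and 8.48, which left a gap of 1.87 with no overlap in either site. Over all genes, 2.22% had all 5 E arrays below all 5 EWD arrays on the deposited scale and 2.14% after quantile normalization. BAMBI also had this order, and since it may have chosen these genes, nothing is read from it.

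The INHBB means were 4.19 ± 0.87 (SD, n = 3) in lymph node E and 7.82 ± 0.88 (n = 3) in lymph node EWD. The corresponding means in primary tumor were 3.62 ± 0.64 (n = 2) and 7.30 ± 0.34 (n = 2). The difference, E minus EWD, was −3.64 ± 0.55 (SE) in lymph node and −3.68 ± 0.68 in primary tumor, a 12.4-fold and a 12.8-fold lower signal. After quantile normalization the differences were −3.48 ± 0.47 and −3.44 ± 0.58. From the most negative of the 17170 differences, INHBB ranked 3 in lymph node and 37 in primary tumor, which describes its place and is no test.

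The INHBB difference in the 2 sites did not part by more than its error. The lymph node difference minus the primary tumor difference was 0.04 ± 0.89 (SE), with a 95% interval from −1.98 to 2.06, and −0.05 ± 0.76 after quantile normalization. The interval thus leaves room for a site difference of about 2 log2 units in either direction. Among lymph node arrays with low hybridization controls (2 E and 2 EWD) the difference was −3.66, and between the 2 arrays with high controls it was −3.59. Within a mouse, lymph node minus primary tumor was 0.07 and 0.89 in E mice 11 and 14, and 1.10 and −0.72 in EWD mice 10 and 19. The site differences in EWD mice thus had opposite signs.

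**Figure D1:**
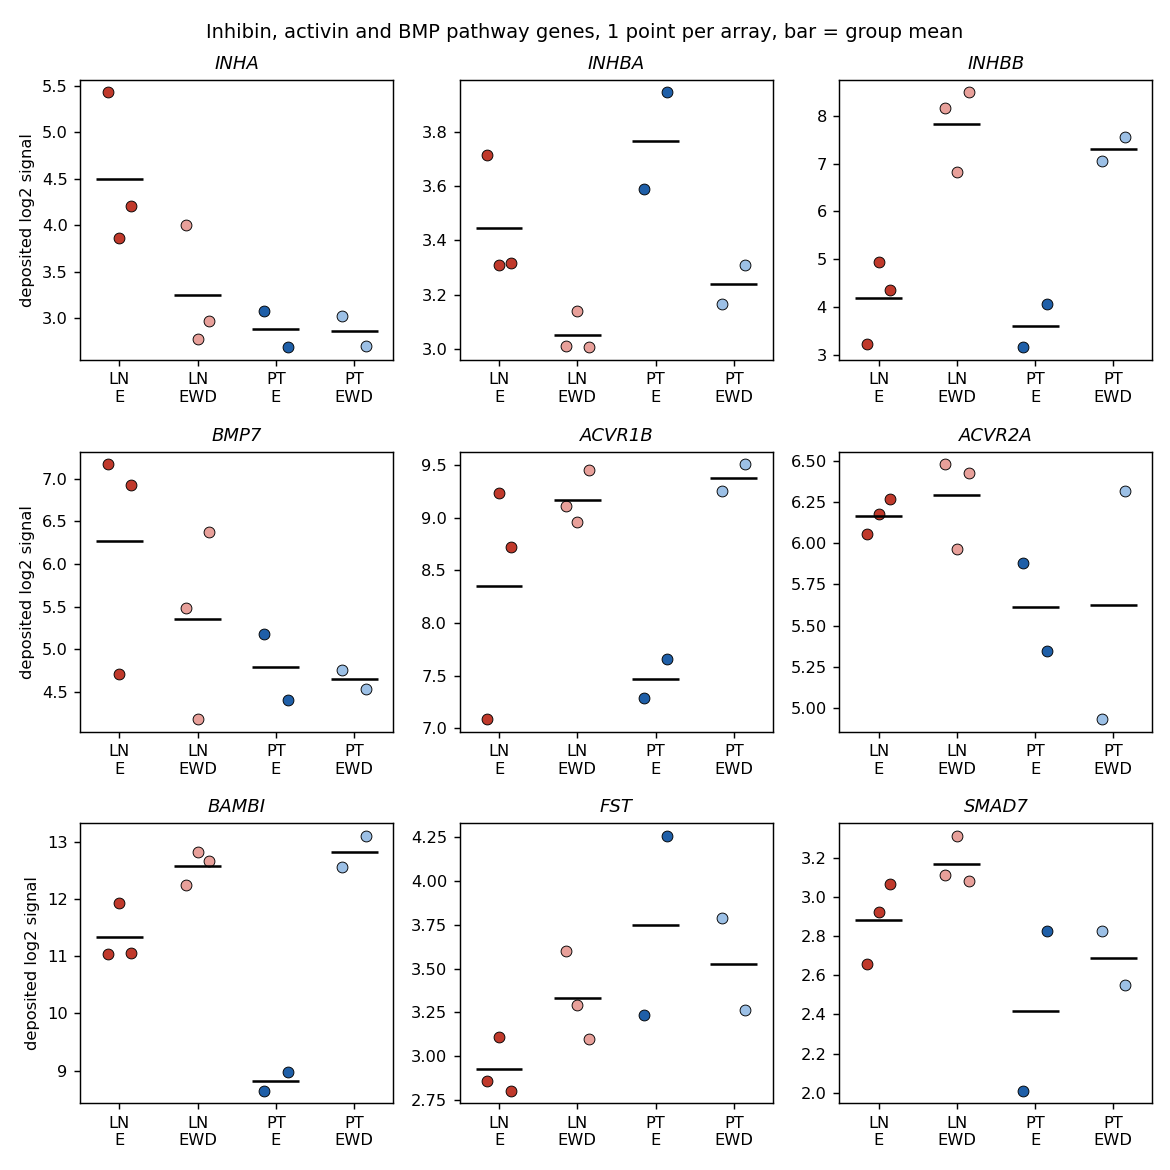
Deposited log2 signal of the gene-level probe set of each of the 9 members (vertical axis), with 1 point per array, in lymph node (LN) and primary tumor (PT) with the pellet (E) or after its removal (EWD); bars mark group means of 3 arrays in lymph node and 2 in primary tumor. INHBB shows E arrays from 3.17 to 4.95 below EWD arrays from 6.82 to 8.48, and BAMBI shows the lowest values, 8.65 and 8.97, in primary tumor E.

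INHBA, the beta A subunit of activin A and inhibin A, had small differences of the other sign. Its brighter probe set read 3.32, 3.71 and 3.31 in lymph node E mice 6, 11 and 14, and 3.01, 3.01 and 3.14 in EWD mice 9, 10 and 19. In primary tumor the values were 3.59 and 3.94 in E mice 11 and 14, and 3.17 and 3.31 in EWD mice 10 and 19. The E arrays were above the EWD arrays within each site, although over both sites the lowest E and the highest EWD value were equal to 2 decimals. The difference was 0.39 ± 0.20 (SE) in lymph node and 0.53 ± 0.24 in primary tumor, and 0.42 and 0.57 after quantile normalization. The second INHBA probe set averaged 2.14, under the filter value of 2.31.

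INHA, the alpha subunit found only in inhibins, was highest in the lymph node arrays of pellet-bearing mice. It read 4.21, 5.43 and 3.86 in lymph node E mice 6, 11 and 14, against 2.96, 4.0 and 2.77 in EWD mice 9, 10 and 19. In primary tumor it read 3.07 and 2.69 with the pellet and 3.02 and 2.70 after its removal, close to the lowest lymph node values. The lymph node groups overlapped, since EWD mouse 10 lay above E mouse 14. The E minus EWD difference was 1.25 ± 0.46 (SE) in lymph node and 0.02 ± 0.56 in primary tumor, and 1.33 ± 0.51 and −0.04 ± 0.62 after quantile normalization. With the pellet, lymph node exceeded primary tumor by 1.61 ± 0.52 (1.66 ± 0.58 after quantile normalization), and as deposited in mice 11 and 14 that gave both sites by 2.35 and 1.17. The lymph node difference was 0.55 among the 4 arrays with low hybridization controls and 2.66 between the 2 with high ones, and whether the controls bear on it was not tested.

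BMP7, a ligand of the BMP branch, varied more within groups than between them. Its brightest probe set read 6.92, 7.17 and 4.71 in lymph node E mice 6, 11 and 14, and 6.38, 5.49 and 4.18 in EWD mice 9, 10 and 19. Primary tumors gave 5.18 and 4.40 in E mice 11 and 14, and 4.76 and 4.54 in EWD mice 10 and 19. The groups overlapped in both sites. The difference between pellet states was 0.92 ± 0.73 (SE) in lymph node and 0.15 ± 0.89 in primary tumor, and 1.07 ± 0.72 and 0.41 ± 0.88 after quantile normalization. As deposited the 95% intervals ran from −0.73 to 2.57 and from −1.87 to 2.18, with no allowance for the choice of the members. The lymph node difference was −0.12 among the arrays with low hybridization controls and 2.99 between those with high ones. Of the other 5 BMP7 probe sets, 3 had all lymph node E arrays above all EWD arrays, by 0.54 ± 0.21, 1.05 ± 0.49 and 1.02 ± 0.41 in the mean, while the remaining ones gave −0.15 ± 0.41 and −0.13 ± 0.18 with overlap. Those 3 carry probe set names built on 1 and the same sequence record and may share probes, so they are not independent readings.

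ACVR1B, the type I activin receptor also known as ALK4, was lower with the pellet in primary tumor on the deposited scale. Its brightest probe set read 7.29 and 7.66 in primary tumor E mice 11 and 14 and 9.26 and 9.51 in EWD mice 10 and 19. In lymph node it read 8.72, 7.09 and 9.23 in E mice 6, 11 and 14 and 9.45, 9.11 and 8.95 in EWD mice 9, 10 and 19. The primary tumor groups did not overlap, and the lymph node groups did, with E mouse 11 far below the others. The primary tumor difference was −1.91 ± 0.60 (SE) on the deposited scale and −0.76 ± 0.45 after quantile normalization. The lymph node difference was −0.82 ± 0.49 as deposited, −0.68 ± 0.37 after quantile normalization, and −0.19 as deposited without the E array of mouse 11. The other 3 ACVR1B probe sets averaged 2.22 to 3.46 and had primary tumor differences of −0.13, 0.04 and 0.70, so the difference rests on 1 probe set.

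ACVR2A, a type II receptor for activins, had overlapping pellet groups in both sites. The brighter of its probe sets read 6.27, 6.06 and 6.18 in lymph node E mice 6, 11 and 14, and 6.43, 6.48 and 5.97 in EWD mice 9, 10 and 19. It read 5.88 and 5.34 in primary tumor E mice 11 and 14, and 4.93 and 6.32 in EWD mice 10 and 19. The lowest and one of the highest values thus came from the same primary tumor EWD group. The differences were −0.13 ± 0.35 (SE) in lymph node and −0.01 ± 0.43 in primary tumor, with 95% intervals from −0.92 to 0.67 and from −0.99 to 0.96. After quantile normalization they were 0.03 ± 0.33 and 0.50 ± 0.40, both positive, with intervals from −0.71 to 0.76 and from −0.41 to 1.4.

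BAMBI, the kinase-less decoy receptor, was lower with the pellet in both sites. Its single probe set read 11.06, 11.04 and 11.93 in lymph node E mice 6, 11 and 14, and 12.66, 12.25 and 12.83 in EWD mice 9, 10 and 19. In primary tumor it read 8.65 and 8.97 in E mice 11 and 14, and 12.56 and 13.10 in EWD mice 10 and 19. All E arrays lay below all EWD arrays, by a gap of 0.32, and the primary tumor E arrays lay lowest. Group means were 11.34 ± 0.51 (SD, n = 3) and 12.58 ± 0.30 (n = 3) in lymph node, and 8.81 ± 0.23 (n = 2) and 12.83 ± 0.38 (n = 2) in primary tumor.

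The E minus EWD difference of BAMBI was −1.24 ± 0.31 (SE) in lymph node and −4.02 ± 0.38 in primary tumor on the deposited scale, a 2.36-fold and a 16.2-fold lower signal. After quantile normalization it was −1.21 ± 0.30 and −2.38 ± 0.37. The difference between the 2 sites was 2.78 ± 0.50 on the deposited scale and 1.17 ± 0.49 after quantile normalization. These errors make no allowance for the choice of the members from values of these same arrays. With the pellet, BAMBI was 2.53 ± 0.35 higher in lymph node than in primary tumor as deposited, and 0.89 ± 0.35 higher after quantile normalization. With each array scaled to 1 median and interquartile range it was 1.82 higher. The size of this site difference thus depended on the scaling, while the signal was lower with the pellet in each site on both scales. In EWD mice the site difference was −0.25, and within mice 10 and 19 it was −0.31 and −0.27.

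**Figure D2:**
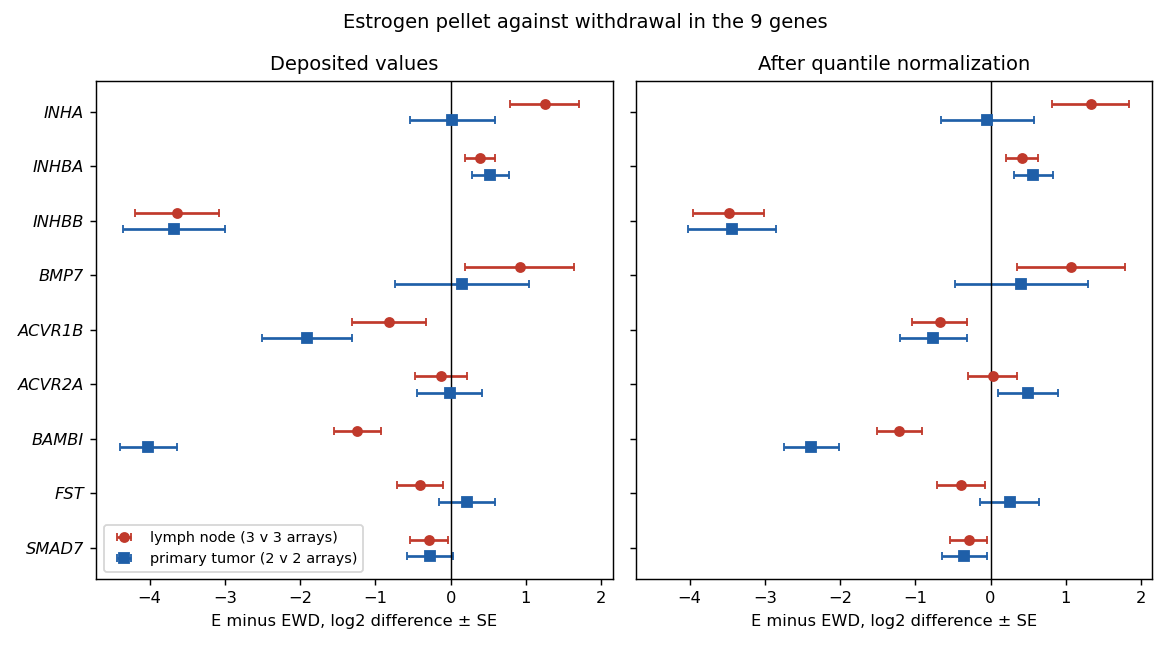
Differences between pellet states (E minus EWD, log2, with SE bars from the limma fit) of the 9 members in lymph node and primary tumor, on the deposited scale and after quantile normalization. INHBB stays between −3.44 and −3.68 in both sites and on both scales, whereas BAMBI in primary tumor goes from −4.02 to −2.38 and ACVR1B from −1.91 to −0.76.

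FST, the secreted activin-binding protein, read 2.80, 2.86 and 3.11 in lymph node E mice 6, 11 and 14, and 3.10, 3.60 and 3.29 in EWD mice 9, 10 and 19. It read 3.24 and 4.26 in primary tumor E mice 11 and 14, and 3.79 and 3.27 in EWD mice 10 and 19. The groups overlapped in both sites, in lymph node only narrowly, and the highest value was that of primary tumor E mouse 14. The differences were −0.41 ± 0.30 (SE) in lymph node and 0.22 ± 0.37 in primary tumor, and −0.39 ± 0.32 and 0.26 ± 0.39 after quantile normalization. The other FST probe sets averaged 2.27 and 2.32, at the filter value.

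SMAD7, the inhibitory SMAD that is itself a target of the pathway, was read by 1 dim probe set with a mean of 2.84. Its values were 3.06, 2.66 and 2.92 in lymph node E mice 6, 11 and 14, and 3.08, 3.11 and 3.31 in EWD mice 9, 10 and 19. In primary tumor they were 2.01 and 2.83 in E mice 11 and 14, and 2.83 and 2.55 in EWD mice 10 and 19. The lymph node E arrays all lay just below the EWD arrays, and the primary tumor groups overlapped. The differences of −0.29 ± 0.25 (SE) and −0.28 ± 0.31, and of −0.29 ± 0.24 and −0.35 ± 0.30 after quantile normalization, were near their errors.

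**Figure D3:**
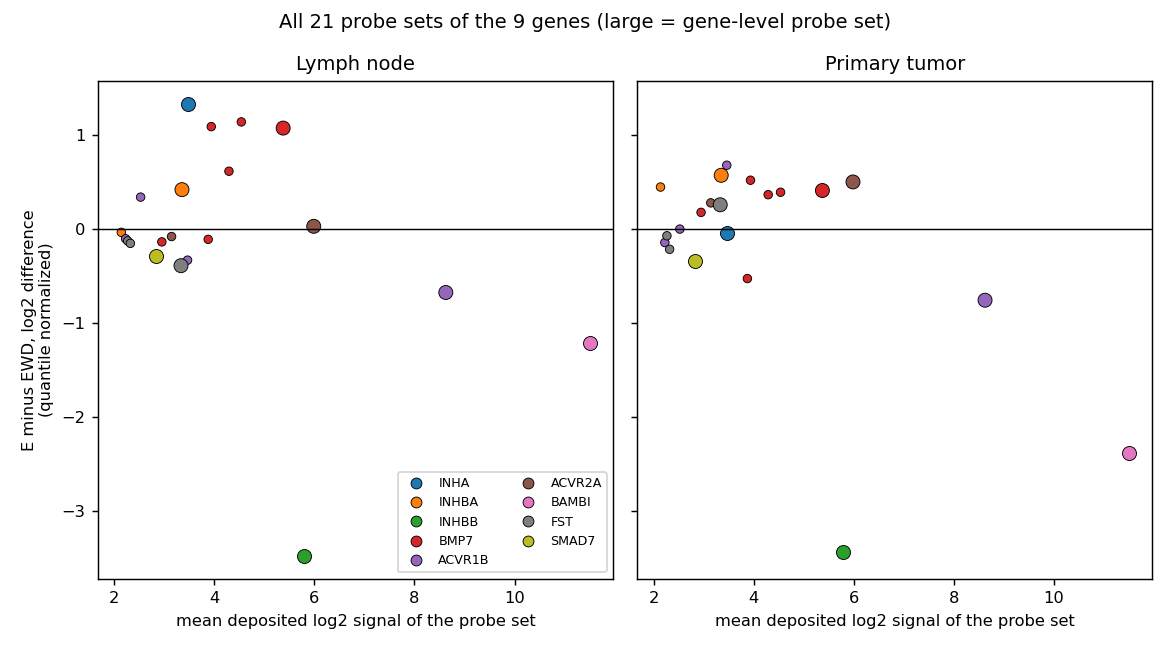
E minus EWD difference (log2, quantile-normalized values) of each of the 21 member probe sets against its mean deposited log2 signal over the 10 arrays, in lymph node and primary tumor, with 1 point per probe set. The probe sets of INHBB and BAMBI lie lowest in primary tumor, at −3.44 and −2.38, and the bright ACVR1B probe set, at −0.76 there, lies below its 3 dimmer ones. Large points are the gene-level probe sets.

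Across the 9 members, 18 of the 21 probe sets and all 9 gene-level probe sets passed the filter. In lymph node, 0 members were called, as were 0% of all genes on either scale. On the deposited scale 3 members (INHBB, BAMBI and SMAD7) had non-overlapping groups with E lower and 1 (INHBA) with E higher, where 5.46% and 4.47% of all genes did. In primary tumor, 2 members (INHBB and BAMBI) were called lower with the pellet, on both scales, and 0 higher, beside 6.94% of all genes called lower and 0.879% called higher on the deposited scale and 0.583% called lower after quantile normalization. Groups of 2 separate easily: as deposited, 3 members (INHBB, BAMBI and ACVR1B) had non-overlapping primary tumor groups with E lower and 1 (INHBA) with E higher, where 38.3% and 22.6% of all genes did. In the average of both sites the same 2 members were called lower with the pellet, beside 7.04% of all genes on the deposited scale and 2.1% after quantile normalization.

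The median difference of the 9 members between pellet states was −0.29 in lymph node, where that of all genes was −0.02, and −0.01 in primary tumor, where that of all genes was −0.10. The list thus held genes with large negative, small positive and near-zero differences. With the pellet, 1 member (BAMBI) was called higher in lymph node than in primary tumor on the deposited scale, beside 7.81% of all genes, and 0 after quantile normalization, beside 0.0757%. On the deposited scale 3 members (BAMBI, INHA and ACVR2A) had non-overlapping groups with lymph node higher and 1 (FST) with lymph node lower, where 28% and 9.98% of all genes did. After quantile normalization the ACVR2A groups overlapped, with a difference of 0.01, and those of the others still did not. In EWD mice 0 members were called between sites, as were 0% of all genes, and in the average of both pellet states BAMBI was called higher in lymph node, beside 7.51% as deposited, and 0 members after quantile normalization, beside 0.128%. For the difference between the responses of the sites 0 members were called, beside 0.0116% and 0.00583% of all genes on the respective scales. Since these contrasts may have chosen the members, nothing is read from the counts. The comparisons share groups of arrays with one another.

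In each site all E arrays of INHBB and BAMBI lay below all EWD arrays. Leaving out 1 array thus could not turn the sign of their deposited differences, and the following ranges describe size only. The INHBB difference ranged from −4.12 to −3.17 in lymph node and from −4.05 to −3.39 in primary tumor over the 10 leave-one-out fits. The BAMBI difference in primary tumor ranged from −4.31 to −3.68, and that in lymph node from −1.53 to −1.09. Leaving out a primary tumor array leaves 1 array in its group, whose spread is then assumed to be that of the others.

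The other genes of the pathway were read from a list of 90 ligands, receptors, antagonists, SMADs, intracellular regulators and targets that held no member. Of these 84 were measured and 71 passed the filter and were tested. In lymph node 0 of 71 were called by limma with Benjamini-Hochberg adjustment over all genes, 3 had an unadjusted p below 0.05 and the smallest adjusted p was 0.48. In primary tumor 6 of 71 fell with the pellet and 0 rose on the deposited scale, and 0 were called after quantile normalization, where 14 had an unadjusted p below 0.05. The share of all genes at that unadjusted threshold is not given, so nothing is read from such counts, here or below. The 6 of 71 are close to the 6.94% of all genes called lower in this comparison as deposited, so the count is not particular to the list. Without any 1 of the 4 primary tumor arrays, which leaves 1 array in its group, fewer genes were called, both of the list and of all genes. Without the lymph node E array of mouse 11 the count was 12. In that fit 20.8% of all genes were called in either direction, against 7.82% with all arrays. The median difference in primary tumor was −0.16 for the list and −0.10 for all genes on the deposited scale, and −0.01 and 0.06 after quantile normalization.

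The 6 genes that fell in primary tumor came from several parts of the pathway. GDF15, a distant TGF-beta family ligand induced by cell stress, read 5.60 and 5.37 in primary tumor E mice 11 and 14 and 8.07 and 8.31 in EWD mice 10 and 19. Its difference was −2.69 ± 0.44 (SE, limma adjusted p = 0.015), and −2.01 with an adjusted p of 0.060 after quantile normalization. TWSG1, a secreted BMP-binding protein, read 7.28 and 7.13 with the pellet and 9.97 and 10.16 after its removal in the same mice. Its difference was −2.85 ± 0.56 (limma adjusted p = 0.024), and −1.71 with an adjusted p of 0.078 after quantile normalization. In both genes the E arrays lay more than 2 log2 units below the EWD arrays as deposited. For GDF15 4 of 5 probe sets and for TWSG1 both had a negative difference.

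The other 4 were an activin and BMP type I receptor and 3 intracellular regulators. ACVR1, that receptor, differed by −1.70 ± 0.42 (SE, limma adjusted p = 0.045). PPM1A, a phosphatase that acts on SMADs, differed by −2.34 ± 0.51 (adjusted p = 0.032), and STRAP, which binds TGF-beta receptors and SMAD7, by −2.15 ± 0.45 (adjusted p = 0.028). SMURF2, a ubiquitin ligase that marks receptors and SMADs for degradation, differed by −1.36 ± 0.34 (adjusted p = 0.048). After quantile normalization these 4 differences were −1.04, −0.92, −0.71 and −0.31, with adjusted p-values from 0.15 to 0.67. STRAP had a negative difference in 1 of its 2 probe sets and SMURF2 in all 5. Luminal markers were also lower, and basal markers higher, in the primary tumor E arrays, as given above on the deposited scale. On that scale bright genes in general were lower in these arrays, with medians of −1.90 above level 10 and −0.58 from 4 to 10. After quantile normalization these medians were −0.18 and 0.06, and marker means on that scale are not given. Whether luminal markers fell more than equally bright genes was not tested. The part of the markers in the differences of the called genes was not tested either.

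**Figure D4:**
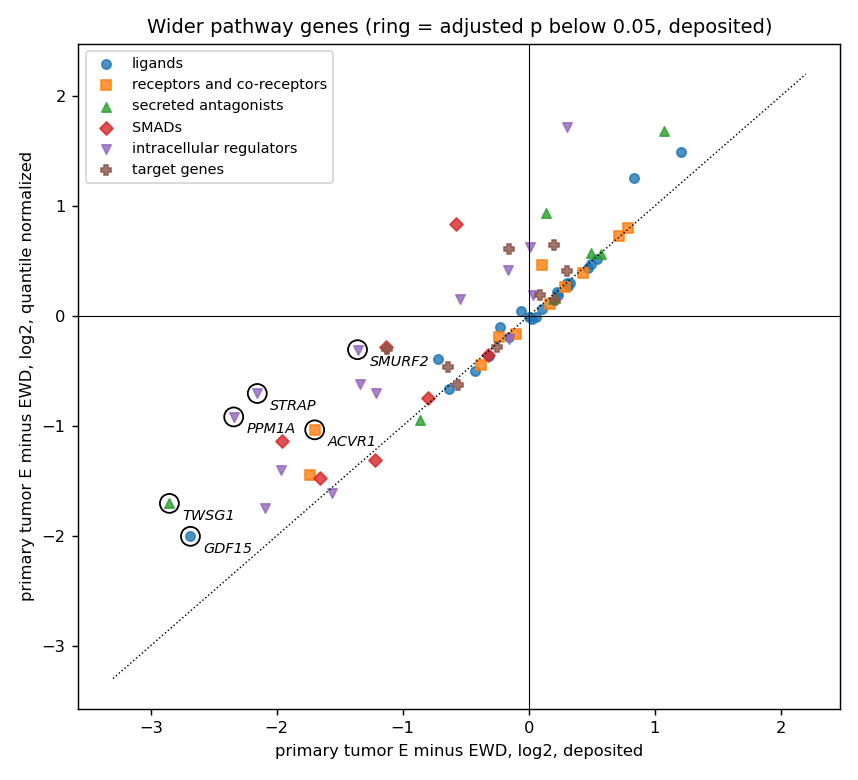
E minus EWD difference in primary tumor (log2) of the tested genes of the wider pathway list, as deposited (horizontal axis) and after quantile normalization (vertical axis), with marker shapes for roles, rings for genes called as deposited and a dotted line of equality. The 6 ringed genes lie between −1.36 and −2.85 on the horizontal axis and above the line of equality, at −0.31 to −2.01 on the vertical axis.

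By role, the fall in primary tumor on the deposited scale was made of 1 of 22 tested ligands, 1 of 11 receptors and co-receptors, 1 of 8 secreted antagonists, 3 of 14 intracellular regulators, 0 of 7 SMADs and 0 of 9 target genes. All 7 SMADs had a negative difference, with a median of −1.13, though 0 passed the test, and after quantile normalization 6 of 7 were negative with a median of −0.75. Of all genes, 44.1% had a positive difference as deposited and 54.3% after quantile normalization. Genes with a mean of 4 to 10 had a median difference of −0.58 as deposited and 0.06 after quantile normalization. The 3 genes with the highest moderated t in primary tumor were BMPR2, the BMP type II receptor (0.79 ± 0.34 SE), CHRDL2, a chordin-like BMP antagonist (0.58 ± 0.24), and NODAL, a ligand of embryonic patterning (1.21 ± 0.39). They did not pass the test, with limma adjusted p-values from 0.091 to 0.18. NODAL read 4.94 and 5.03 in the E arrays and 3.54 and 4.01 in the EWD arrays.

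In lymph node the genes of the wider list with the most extreme moderated t did not pass the test. NEDD4L, a ubiquitin ligase for SMAD2 and SMAD3, differed by −1.78 ± 0.46 (SE, limma adjusted p = 0.48), BMP4, a BMP ligand, by −0.93 ± 0.33 and TGIF1, a SMAD corepressor, by −0.81 ± 0.36. On the other side CDKN2B, a cell cycle inhibitor induced by TGF-beta, differed by 0.42 ± 0.20, GDF11, a ligand close to myostatin, by 0.65 ± 0.30, and BMP5 by 2.82 ± 1.07. BMP5 read 8.01, 3.37 and 7.26 in E mice 6, 11 and 14 and 3.26, 3.04 and 3.86 in EWD mice 9, 10 and 19, so 2 of 3 E arrays were high and the third lay within the EWD range.

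When both sites were averaged, 5 of 71 genes fell with the pellet and 0 rose on the deposited scale, a share close to the 7.04% of all genes called lower. These were NEDD4L (−1.93 ± 0.36 SE, limma adjusted p = 0.022), TWSG1 (−1.92 ± 0.36, adjusted p = 0.022), GDF15 (−1.72 ± 0.28, adjusted p = 0.017), PPM1A (−1.56 ± 0.33, adjusted p = 0.030) and ACVR1 (−1.21 ± 0.27, adjusted p = 0.035). After quantile normalization NEDD4L (−1.70, adjusted p = 0.029), TWSG1 (−1.28, adjusted p = 0.039) and GDF15 (−1.30, adjusted p = 0.041) were still called. On that scale 2.1% of all genes were called lower. With the mean of all its probe sets, as deposited, GDF15 was not called (−0.87, limma adjusted p = 0.066). NEDD4L read 5.23, 3.59 and 5.51 in lymph node E and 6.96, 6.25 and 6.45 in lymph node EWD, in the mouse order used above. In primary tumor it read 4.60 and 4.54 with the pellet and 6.82 and 6.50 after its removal, so all 5 E arrays lay below all 5 EWD arrays. Of its 5 probe sets 4 had a negative difference.

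Between sites with the pellet present, 2 of 71 genes of the list were higher in lymph node than in primary tumor and 0 were lower on the deposited scale, where 7.81% of all genes were called higher. SMAD6, the inhibitory SMAD of the BMP branch, read 6.22, 5.62 and 5.36 in lymph node E mice 6, 11 and 14 against 4.09 and 3.68 in primary tumor E mice 11 and 14. Its difference was 1.86 ± 0.37 (SE, limma adjusted p = 0.018), and 1.73 with an adjusted p of 0.079 after quantile normalization, with 2 of its 4 probe sets positive. SMURF2 differed by 1.68 ± 0.32 (adjusted p = 0.016), and by 0.65 with an adjusted p of 0.50 after quantile normalization. Averaged over both pellet states the same genes were called, where 7.51% of all genes were called higher, at 1.36 ± 0.26 for SMAD6 (adjusted p = 0.020) and 0.97 ± 0.23 for SMURF2 (adjusted p = 0.037), and 0 were called after quantile normalization. In EWD mice 0 of 71 genes were called between sites by limma, with 7 at an unadjusted p below 0.05. For the difference between the responses of the sites 0 were called, with 6 at an unadjusted p below 0.05, so a response particular to 1 site was not shown for any gene of the list.

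**Figure D5:**
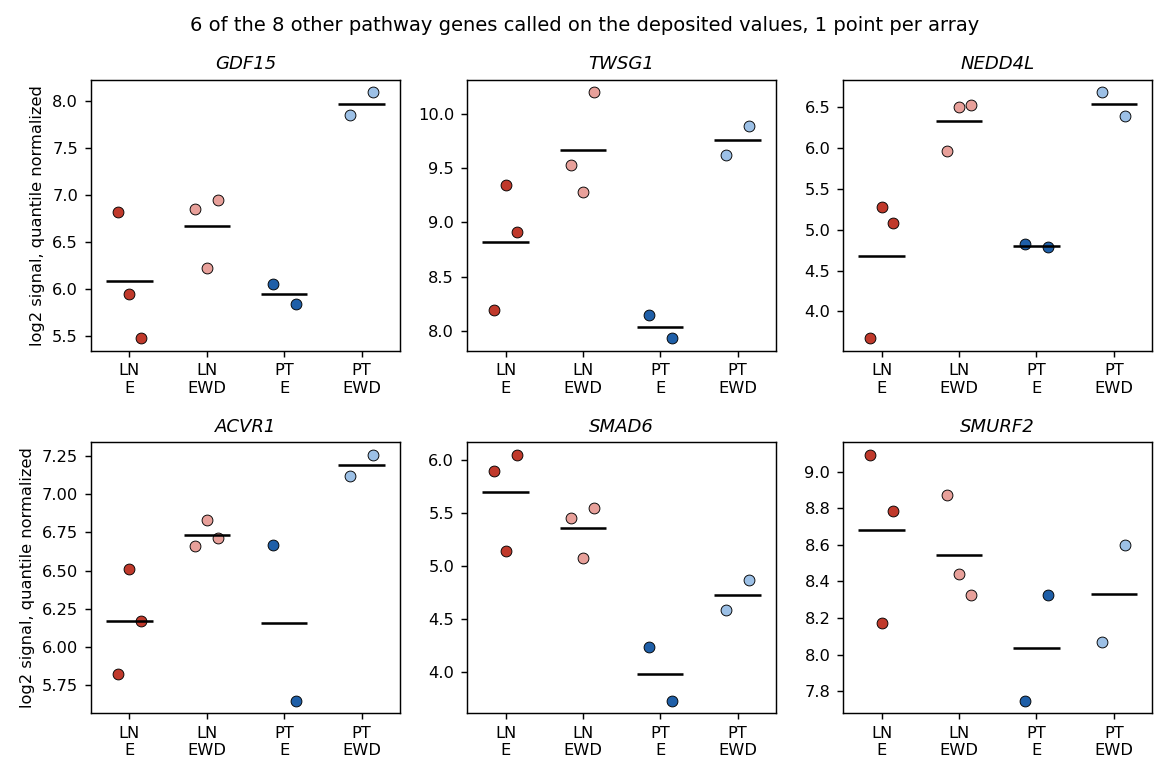
Quantile-normalized log2 signal (vertical axis) of 6 of the genes of the wider list that were called on the deposited values in at least 1 comparison, with 1 point per array and bars for group means in the 4 groups (LN, lymph node; PT, primary tumor; E, pellet present; EWD, pellet removed). GDF15 and TWSG1 show primary tumor E arrays below EWD arrays, at 5.84 and 6.05 against 7.85 and 8.10 for GDF15, and NEDD4L shows E arrays below EWD arrays in both sites.

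Over the 10 quantile-normalized arrays, which share the 2 pellet states, the members were related in level as follows, as a description with n = 10 and no test. The Pearson r of INHBB was 0.87 with BAMBI, 0.78 with ACVR1B and −0.78 with INHBA. That of INHA with BMP7 was 0.79, and both had their highest value on the lymph node E array of mouse 11. Of the 17166 other genes tested, those with the highest r to INHBB were MYL12B, a myosin regulatory light chain (0.970), COMMD7 (0.960), FAM221A (0.957), RAB27B, a small GTPase of secretory vesicles (0.953), and DDR1, a collagen receptor kinase (0.952). Those with the lowest were IL1RN, the interleukin-1 receptor antagonist (−0.959), BYSL (−0.950), CHCHD6 (−0.950), TRABD (−0.937) and FOXO6 (−0.931).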

How the data were processed

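Laser-captured xenograft cells from 6 mice gave 10 arrays. The authors deposited log2 signal values, made with Partek and RMA per the submitters' processing notes (versions not given in the sources used here). RMA normalization normally gives arrays 1 distribution, yet these differed in range, so every comparison was repeated after quantile normalization. The captured samples were small and PCR amplified, which adds noise, and array number limits the precision.

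Probe sets with exactly 1 symbol (44532) gave 19556 genes, each read by its probe set with the highest mean. Genes whose mean was under 2.31 (the 25th percentile over the probe sets) were left out of tests. limma 3.58.1 in R 4.3.3 fitted 1 mean per group over all genes, with mouse as a random block (consensus correlation −0.042) and Benjamini-Hochberg adjustment. Mouse numbers pair sites of 1 animal. The residual correlations within mice 10, 11, 14 and 19 were 0.18, −0.21, −0.21 and 0.083. The fit was tested on simulated data with changes put into the lymph node E arrays. It recovered 10.4% of changes of 1 log2 unit, 73.1% of those of 2 and 100% of those of 4. Of the unchanged genes 0.024% were called. The 200 changed genes were all raised, and normal noise was drawn separately for each array, so these shares need not hold for the real arrays. On the real arrays 0% of all genes were called in lymph node. INHBB at −3.64, BMP5 at 2.82 and NEDD4L at −1.78 were among those not called there. A gene not called in lymph node may thus still differ by 1 log2 unit or by more.

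The members and lists were chosen with earlier results of these data known. All members are named. Of the wider list, called genes and the 3 highest and 3 lowest moderated t per site are named, and for likeness to INHBB the 5 highest and 5 lowest r. Alternatives were other normalizations, filters, probe set rules, blocks, variance settings, array weights, a hybridization control covariate and leaving out arrays.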

Additional observations from a re-analysis of the deposited data

How the results depend on the processing

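Over 63 differences of the 9 members, 1413 values under other settings were compared with the reported ones. Of these 1325 moved by less than 1 SD, 88 moved by more, and 0 called values reversed. INHBB stayed between −4.12 and −3.06 in lymph node and between −5.15 and −3.39 in primary tumor. The lowest value, −5.15, came with the hybridization control split as a covariate, and the cause was not tested.

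The 0 genes of the wider list called between pellet states in lymph node stayed 0 in all 22 alternatives. In primary tumor, 6 genes were called as reported, where 7.82% of all genes were called in either direction. That share was 24.0% with array weights, 32.8% with the hybridization control covariate and 20.8% without the lymph node E array of mouse 11. The count of list genes was also higher in these settings, so the rise is not particular to the list. The count was 0 after quantile normalization, with or without the replicate block, 1 with the mean of all probe sets, 15 with array weights, 22 with the hybridization control covariate, and 0 to 12 when arrays were left out, highest without the lymph node E array of mouse 11. Without any 1 of the 4 primary tumor arrays fewer genes were called, both of the list and of all genes. For the difference of responses, 0 became 10 with the control covariate and 0 to 4 when arrays were left out.

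Between sites with the pellet, 2 became 0 after quantile normalization with or without the replicate block, interquartile range scaling, the mean of all probe sets or mouse as a fixed replicate block. It became 13 with the control covariate and 0 to 11 when arrays were left out. In EWD mice 0 became 6 with array weights and 3 with the covariate. For the averaged pellet comparison, 5 became 3 after quantile normalization, with or without the replicate block, and 3 with the mean of all probe sets. It became 10 with array weights, 21 with the covariate and 1 to 10 when a lymph node array was left out. With array weights 15.4% of all genes were called in the averaged pellet comparison. For the averaged site comparison, 2 became 0 after quantile normalization with or without the replicate block, range scaling, the mean of all probe sets or the fixed block. It became 1 with trend and robust moderation, 4 with array weights, 5 with the covariate and 0 to 7 when a lymph node array was left out. Of all genes 8.15% were called in the averaged site comparison as reported. That share was 5.31% with trend and robust moderation, 17.8% with array weights, 15.4% with the covariate and 18.4% without the lymph node E array of mouse 11. Under quantile normalization without the lymph node E array of mouse 11, a setting chosen after seeing the data, the counts by direction changed. The named genes kept their sign in it. SMAD6 and SMURF2 differed by 1.63 and 0.44 between sites with the pellet, and the 6 genes named for primary tumor by −2.02 to −0.30. The averaged site comparison called 1 gene, lower in lymph node, the site comparison with the pellet called 0 higher and 3 lower, the primary tumor comparison 3 higher and 3 lower, and the averaged pellet comparison 1 higher and 3 lower. Leaving out the random block by itself changed no count beyond 1.5 times. Where a left-out array leaves 1 array in a group, that array is assumed to vary like the others. The cause of these changes was not tested. Shares of all genes called moved as well. With the control covariate they were 26.2% for the site comparison with the pellet, where 8.76% were called as reported. They were 19.7% for the difference of responses, against 0.0116%, and 32.1% for the averaged pellet comparison, against 8.01%. With array weights in EWD mice the share was 10.4%, against 0%. The counts of list genes are thus not particular to the list. In primary tumor the control covariate is nested with the pellet state and is separated from it only through lymph node arrays.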
